A study of Mus musculus with 6 samples.

Results

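The 10 genes followed here encode interleukin 1 (IL-1) family ligands, their antagonist and their receptors, and were taken as the rows of the deposited feature lists whose symbol was Il1a, Il1b, Il1rn, Il18, Il33, Il1r1, Il1r2, Il1rap, Il1rl1 or Il18r1. All 10 were present among the 31053 genes listed. Single-cell transcriptomes came from dorsal skin of female C57BL/6 mice aged 8 to 10 weeks, in 3 groups of 2 libraries. The Sham group was left untreated. In the IMQ group, 62.5 mg of 5% imiquimod cream was spread on the shaved back daily for 4 days, a model of psoriasis-like inflammation, and skin was taken a day after the last dose. IMQ+SHP099 mice received the cream and also SHP099, which inhibits the phosphatase SHP2 allosterically, by gavage at 10 mg/kg daily for 4 days, which the labels call additional without placing them against the cream days. No group received SHP099 without the cream, and Sham and IMQ mice are not labelled as having received a vehicle. Each library pooled the skin of several mice, so the library was the replicate (n = 2 per group) and p-values measure the spread between libraries.

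The IL-1 family is a set of alarm signals and the receptors that read them. IL-1 alpha (Il1a) and IL-1 beta (Il1b) bind the signalling receptor IL1R1 (Il1r1), which recruits the accessory chain IL1RAP (Il1rap) and signals through the adaptor MYD88 and the IRAK kinases. The antagonist (Il1rn) occupies IL1R1 without recruiting the accessory chain, and the decoy receptor IL1R2 (Il1r2) binds ligand but has no signalling domain. IL-33 (Il33) is read by ST2 (Il1rl1) with the same accessory chain, and IL-18 (Il18) by IL18R1 (Il18r1) with a chain of its own. In skin, keratinocytes are known to hold IL-1 alpha and IL-33 that are released on injury, whereas IL-1 beta and IL-18 are made as precursors that caspase 1 cleaves.

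Cells were gated into 13 classes by marker lists that held none of the 10 genes, and 47319 of the 50850 kept cells (93.1%) took a class. Each class scored highest on its own list, which the gate sets in advance and which is no check of the classes. Keratinocytes made up 70.8% and 22.5% of Sham cells and 16.8% and 7.85% of IMQ cells, with 59.96% and 6.01% of IMQ+SHP099 cells (replicates 1 and 2, the order of every pair of values below), so the replicates of a group differed in makeup. Median depth was 8272 to 8854 UMIs per cell in Sham and IMQ, and 18263.5 and 5645 in IMQ+SHP099. Any 2 libraries shared 14 to 43 cell barcodes over the 15 pairs. A level below is in CPM, the number of UMIs (tags of single captured molecules) of a gene per 1000000 UMIs of a class in a library, and is given where the library held at least 20 cells of the class. Neutrophils therefore have levels only in IMQ and IMQ+SHP099 replicate 2, and dendritic cells only in Sham and IMQ. Mast cells and basophils have them only in Sham replicate 2 and IMQ, and blood endothelial and Schwann cells in all but IMQ+SHP099 replicate 1.

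**Figure D1:**
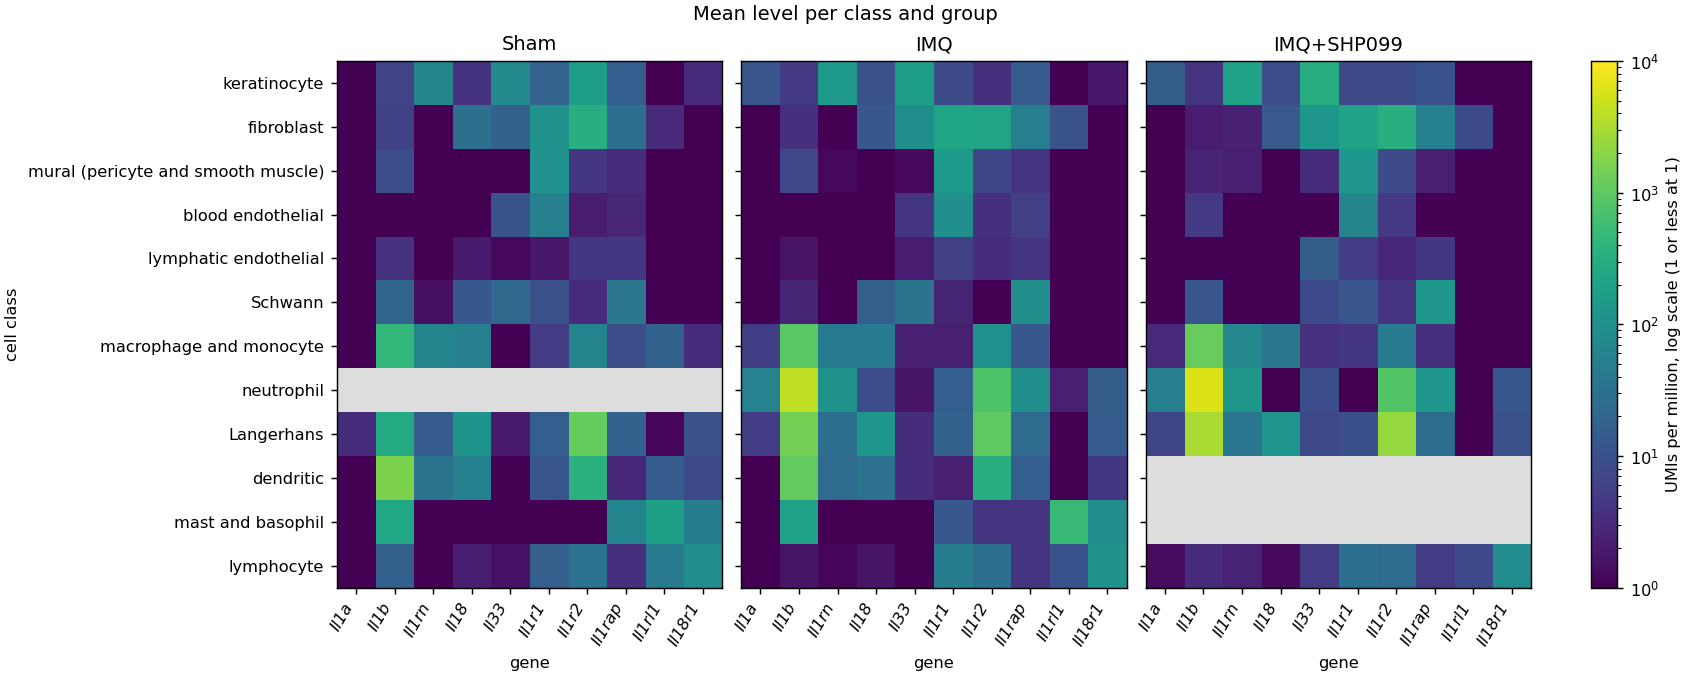
Mean level of each of the 10 genes in each cell class in Sham, IMQ and IMQ+SHP099, in CPM on a log color scale, with grey where no library of the group held 20 cells of the class and levels under 1 drawn at 1. In IMQ, Il1b and Il1r2 are brightest in neutrophils and Langerhans cells and Il1rn and Il33 in keratinocytes, whereas in Sham, where neutrophils are grey, Il1b is brightest in dendritic cells, and the keratinocyte tile of Il1r2 darkens from Sham to IMQ.

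Among the ligands, Il1a (GRCm38 chr2:129299610-129309972, minus strand) was a transcript of keratinocytes and neutrophils. In keratinocytes its level was 1.43 and 0.698 CPM in Sham and 10.3 and 13.2 in IMQ, with 15.9 and 14.1 in IMQ+SHP099. Every treated library lay above both Sham libraries. Neutrophils stood higher, at 97.4 and 19.99 in IMQ and 51.9 in IMQ+SHP099 replicate 2. Langerhans cells, the resident antigen-presenting cells of the epidermis, ranged from 0 to 13.7 and overlapped with keratinocytes, and fibroblasts stayed at 0.145 or less. Basal and suprabasal keratinocytes overlapped in Il1a, at 10.5 and 10.3 against 8.63 and 41.2 in IMQ. Keratinocytes held 64.7% to 92.0% of the Il1a UMIs of a library while making up 6.01% to 70.8% of its cells.

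Il1b (chr2:129364570-129371139, minus strand) was mostly a myeloid transcript. Myeloid classes together held 61.4% to 93.1% of its UMIs while making up 2.43% to 11.5% of the cells. Neutrophils stood highest within each library that had enough of them, at 5109 and 3192 CPM in IMQ and 6099 in IMQ+SHP099 replicate 2. Langerhans cells held 424 and 133 in Sham and 1938 and 1005 in IMQ, with 4682 and 1435 in IMQ+SHP099, so each treated library lay above both Sham libraries. Dendritic cells held 1817 and 1424 in Sham and 1130 and 1057 in IMQ. Macrophages and monocytes held 58.9 and 831 in Sham and 1107 and 786 in IMQ, with 1342 and 994 in IMQ+SHP099. These 3 classes overlapped with each other, and the macrophage value of Sham replicate 1 rested on 17 UMIs in 67 cells.

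Shares of cells were compared after thinning each cell to 2000 UMIs, which left out the 6.42% to 11.7% of cells per library that were shallower. The share of Langerhans cells with an Il1b UMI was then 6.09% and 10.6% in Sham and 56.9% and 57.4% in IMQ, with 69.7% and 54.5% in IMQ+SHP099 (unthinned, 9.76% and 30.9%, 69.5% and 66.7%, and 77.3% and 59.1%, at class median depths of 5946 to 19348 UMIs). Keratinocytes carried an Il1b UMI in 0.243% to 0.823% of thinned cells (unthinned, 1.58% to 6.76%) and fibroblasts in 0.109% to 0.590% (unthinned, 0.618% to 1.64%). Levels in these last 2 classes, 0.708 to 9.02 and 1.09 to 9.02 CPM, are read as background.

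Il18 (chr9:50554827-50581840, plus strand) was highest in Langerhans cells, at 165 and 67.7 in Sham and 139 and 114 in IMQ, with 147 and 104 in IMQ+SHP099, and the groups overlapped. Macrophages and monocytes (14.97 to 61.2), dendritic cells (16.1 to 61.9) and fibroblasts (8.86 to 49.3) followed and overlapped with each other. The highest fibroblast value was that of Sham replicate 1, against 8.86 to 17.4 in the other 5 libraries. In keratinocytes the level was 2.38 and 5.43 in Sham and 8.87 and 10.5 in IMQ, with 9.04 and 8.80 in IMQ+SHP099. Of the 171 keratinocyte Il18 UMIs in Sham replicate 2, 151 lay in suprabasal cells, of which 2.72% carried an Il18 UMI.

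Il33 (chr19:29925114-29960718, plus strand) came mostly from keratinocytes and fibroblasts, and Schwann cells held 7.86 to 55.7 CPM from 1 to 42 UMIs. Its keratinocyte level was 82.3 and 69.8 in Sham and 231 and 114 in IMQ, with 380 and 239 in IMQ+SHP099. Its fibroblast level was 11.8 and 22.2 in Sham and 112 and 83.6 in IMQ, with 158 and 96.0 in IMQ+SHP099. In both classes every treated library lay above both Sham libraries. Suprabasal keratinocytes held 28.4 and 20.03 in Sham against 272 and 146 in IMQ, whereas basal keratinocytes held 109 and 95.7 against 223 and 110. The share of thinned fibroblasts with an Il33 UMI was 1.68% and 4.09% in Sham and 10.8% and 9.53% in IMQ, with 14.8% and 9.84% in IMQ+SHP099 (unthinned, 4.41% and 8.58%, 24.5% and 22.3%, and 27.4% and 19.5%), against 0% to 0.984% of thinned lymphocytes (unthinned, 0% to 1.20%, at median depths of 5012 to 9093 and 1261.5 to 3874 UMIs). Fibroblasts held 1.07% and 23.8% of all Il33 UMIs in Sham and 25.7% and 60.8% in IMQ, with 3.55% and 50.5% in IMQ+SHP099, a share that moves with how many cells of each class a library held.

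The antagonist Il1rn (chr2:24336853-24351494, plus strand) was a keratinocyte transcript, with 81.2% to 95.2% of its UMIs in that class. Keratinocytes held 57.1 and 76.4 CPM in Sham and 157 and 128 in IMQ, with 141 and 266 in IMQ+SHP099. The level was higher in suprabasal than in basal cells in each of the 6 libraries, at 83.7 and 117 against 43.9 and 55.1 in Sham and 330 and 333 against 126 and 106 in IMQ. Neutrophils (82.4 to 133) and macrophages and monocytes (24.3 to 104) overlapped with keratinocytes, and Langerhans cells held 12.7 to 54.0. Relative to the ligand, keratinocytes held 40.1 and 109 Il1rn UMIs per Il1a UMI in Sham and 15.3 and 9.64 in IMQ, with 8.92 and 18.9 in IMQ+SHP099. In Langerhans cells the Il1rn UMIs per Il1b UMI numbered 0.0399 and 0.0952 in Sham and 0.0115 to 0.0299 in the treated libraries. UMIs of different genes are not captured alike, so these ratios compare libraries and not genes.

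The signalling receptor Il1r1 (chr1:40225080-40317257, plus strand) was mainly a stromal transcript. Fibroblasts held 136 and 89.6 CPM in Sham and 271 and 193 in IMQ, with 189 and 209 in IMQ+SHP099. Mural cells, the pericytes and smooth muscle cells of vessels, held 106 and 109 in Sham and 134 and 142 in IMQ, with 122 and 131 in IMQ+SHP099. Blood endothelial cells held 17.6 to 106, below the mural level of the same library in all 5, and lymphatic endothelial cells held 0 to 7.82. Keratinocytes were lower, at 14.96 and 20.7 in Sham and 9.28 and 7.90 in IMQ, with 6.75 and 9.82 in IMQ+SHP099. Lymphocytes held 10.1 and 22.6 in Sham and 57.1 and 36.8 in IMQ, with 3.93 and 53.1 in IMQ+SHP099. Neutrophils, Langerhans cells, dendritic cells, macrophages and mast cells held 0 to 24.7. Within lymphocytes, cells gated on gamma-delta receptor genes held 85.1 and 108 in IMQ against 27.7 and 17.4 in cells gated on alpha-beta receptor genes.

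The decoy receptor Il1r2 (chr1:40074079-40125231, plus strand) was highest in Langerhans cells, at 1685 and 609 in Sham and 820 and 1198 in IMQ, with 2745 and 1843 in IMQ+SHP099. Neutrophils overlapped with them at 665 to 936, and dendritic cells held 182 to 536. Fibroblasts held 356 and 278 in Sham and 266 and 169 in IMQ, with 316 and 340 in IMQ+SHP099. Macrophages and monocytes held 17.5 to 139. Keratinocytes held 251 and 102 in Sham and 4.43 and 2.53 in IMQ, with 7.45 and 9.21 in IMQ+SHP099. Sham keratinocytes thus lay below the fibroblasts and the dendritic cells of the same library, and treated keratinocytes lay within the 1.93 to 11.8 of mural cells.

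The accessory chain Il1rap (chr16:26581704-26730117, plus strand) was spread over more classes. Neutrophils held 73.9 to 125 CPM, Schwann cells 17.1 (from 1 UMI) to 126, fibroblasts 22.1 to 61.3, Langerhans cells 16.9 to 30.8 and keratinocytes 5.72 to 17.3. Neutrophils and Schwann cells overlapped, as did Schwann cells and fibroblasts. Mural, blood endothelial, lymphatic endothelial and lymphocyte levels stayed under those of Langerhans cells, at 0 to 8.54, and macrophages and monocytes held 0 to 12.7.

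Il1rl1 (chr1:40429570-40465415, plus strand), the IL-33 receptor, was highest in mast cells and basophils, at 190 in Sham replicate 2 and 567 and 471 in IMQ, from 12, 71 and 30 UMIs. Lymphocytes gated on alpha-beta receptor genes held 108 and 117 in Sham and 21.5 and 15.04 in IMQ, with 21.6 and 13.4 in IMQ+SHP099, and gamma-delta cells 0 to 1.03. Fibroblasts held 1.81 and 4.47 in Sham and 15.2 and 5.73 in IMQ, with 12.8 and 2.93 in IMQ+SHP099. Macrophages and monocytes held 35.0 in Sham replicate 2, from 115 UMIs, and 0 to 1.34 in the other 5 libraries. Il18r1 (chr1:40465552-40500854, plus strand), the IL-18 receptor, was a lymphocyte transcript at 53.5 and 143 in Sham and 109 and 118 in IMQ, with 83.8 and 86.1 in IMQ+SHP099. Mast cells and basophils overlapped with lymphocytes at 47.5 to 110, and keratinocytes held 0.911 to 3.71. Keratinocytes made up 70.8% of the cells of Sham replicate 1 and 59.96% of those of IMQ+SHP099 replicate 1, and held 72.6% and 58.9% of the Il18r1 UMIs there.

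**Figure D2:**
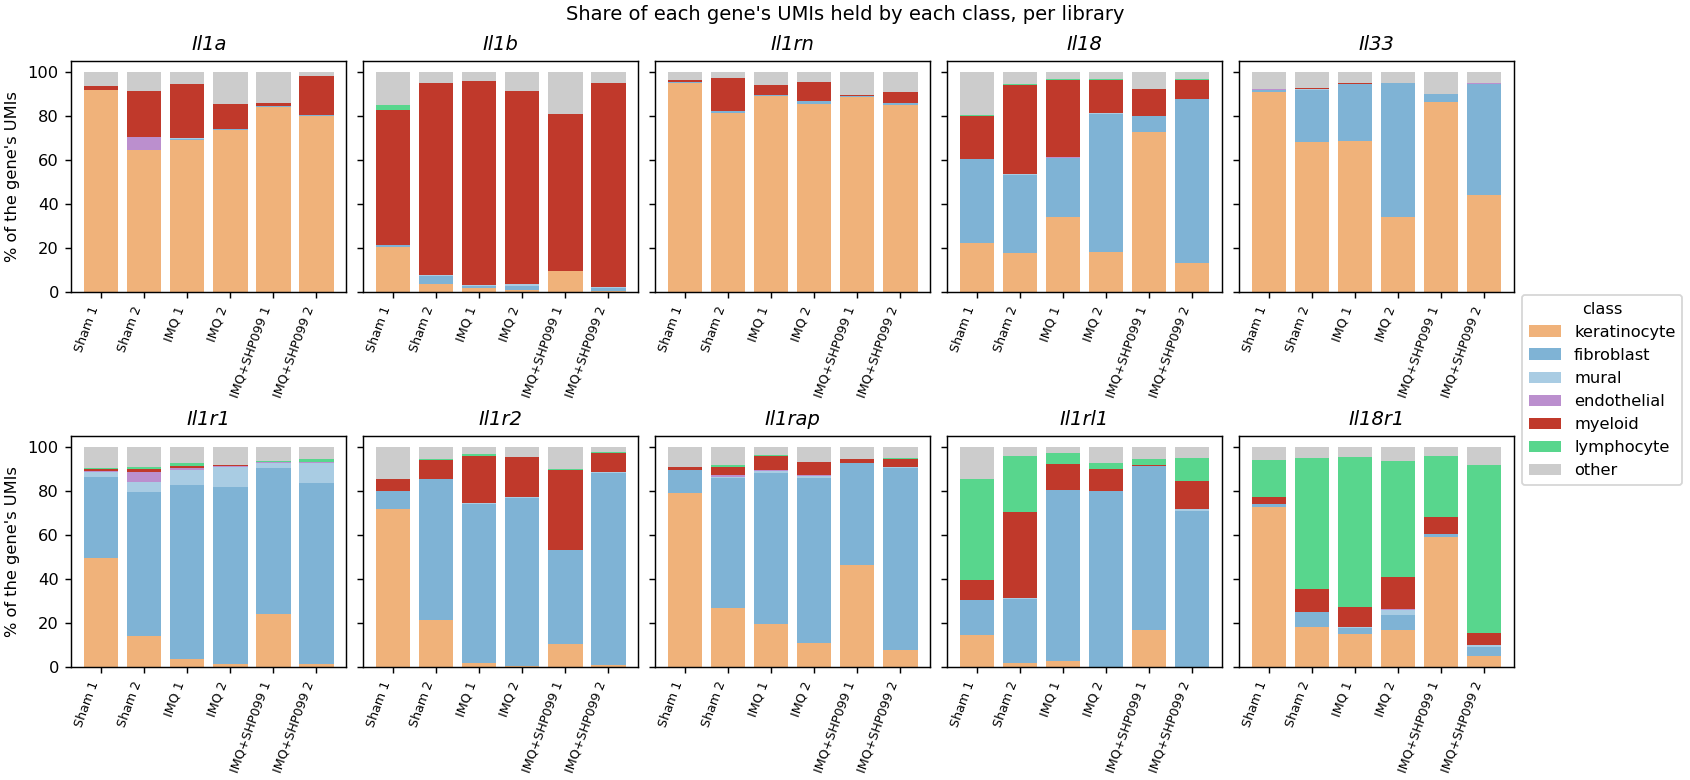
Share of each gene's UMIs (percent, y axis) that each cell class held in each of the 6 libraries. Myeloid classes hold 61.4% to 93.1% of Il1b and keratinocytes 81.2% to 95.2% of Il1rn, while the keratinocyte share of Il1r2 is 71.8% and 21.5% in Sham and 1.58% and 0.473% in IMQ.

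The question whether imiquimod changed these genes within a class was asked on UMIs summed per class and library, with edgeR's quasi-likelihood test over all genes and a threshold of 0.05 on the adjusted p. In keratinocytes the ligands Il1a and Il18 and the antagonist Il1rn rose and the decoy Il1r2 fell. That is 4 of the 10 genes, beside 12.6% of the 14333 genes tested. The median log2 fold change was 0.26 over the 10 genes and -0.08 over all genes. Il1a rose by 3.60 on the log2 scale (SE 0.48, adjusted p = 0.0029), Il18 by 1.67 (SE 0.33, adjusted p = 0.016) and Il1rn by 1.39 (SE 0.31, adjusted p = 0.024). Il1r2 fell by 5.48 (SE 0.64, adjusted p = 0.0017). Il1a and Il1r2 passed the threshold under 13 of 13 alternative settings, at 2.79 to 4.61 and -6.11 to -4.28. Il18 missed it without IMQ replicate 1 (1.75, adjusted p = 0.072) or IMQ replicate 2 (1.62, adjusted p = 0.088). Il1rn missed it without Sham replicate 1 (1.46, adjusted p = 0.053), Sham replicate 2 (1.35, adjusted p = 0.056), IMQ replicate 1 (1.19, adjusted p = 0.27) or IMQ replicate 2 (1.60, adjusted p = 0.096), and with a stricter gate on keratinocytes (1.05, adjusted p = 0.065).

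**Figure D3:**
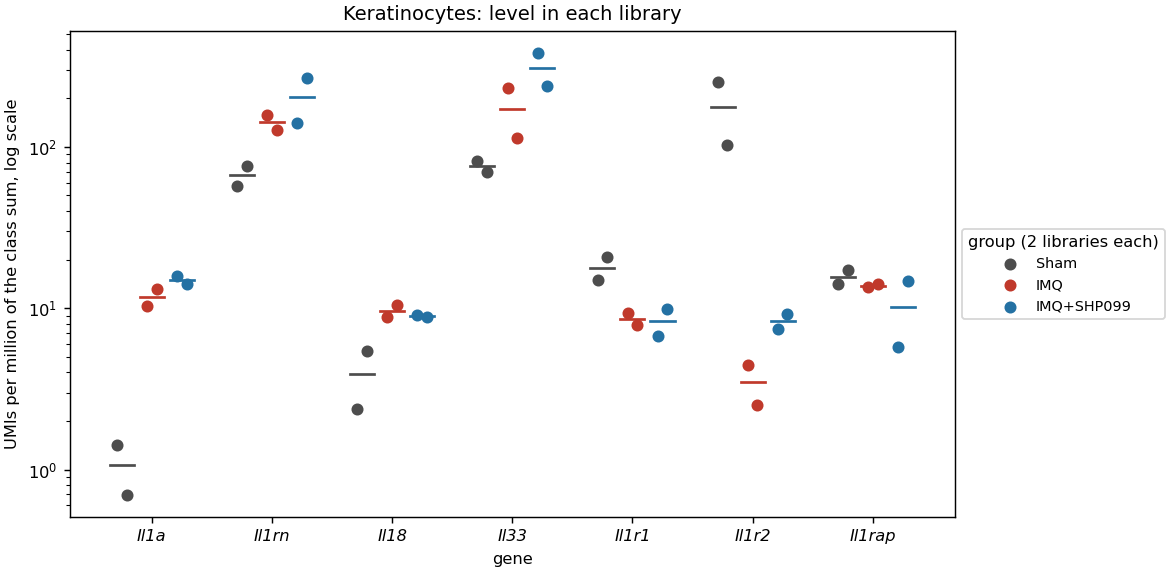
Level of Il1a, Il1rn, Il18, Il33, Il1r1, Il1r2 and Il1rap in keratinocytes (CPM, log axis), with a point per library and a bar at the group mean. Il1r2 lies at 251 and 102 in Sham and at 2.53 to 9.21 in the treated libraries, while Il1a, Il1rn, Il18 and Il33 lie higher in each treated library than in Sham.

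Il33 and Il1r1 did not pass in keratinocytes, with log2 fold changes of 1.43 (SE 0.49, adjusted p = 0.093) and -0.75 (SE 0.26, adjusted p = 0.091). Il33 passed with DESeq2 (1.47, adjusted p = 0.015) and without a filter (1.43, adjusted p = 0.0034). The Il1r2 UMIs per Il1r1 UMI in this class numbered 16.8 and 4.93 in Sham and 0.478 and 0.320 in IMQ, with 1.10 and 0.938 in IMQ+SHP099.

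The difference in Il1r2 lay mostly in basal keratinocytes, at 360 and 145 CPM in Sham and 3.97 and 2.31 in IMQ, with 7.66 and 8.65 in IMQ+SHP099. Of thinned basal cells, 36.6% (95% exact Clopper-Pearson interval 35.1% to 38.1%) and 21.8% (19.5% to 24.1%) carried an Il1r2 UMI in Sham. In IMQ the share was 0.780% (0.337% to 1.53%) and 0.559% (0.152% to 1.42%), and in IMQ+SHP099 1.27% (0.971% to 1.63%) and 1.79% (0.658% to 3.85%). Unthinned, these shares were 64.9% and 46.5%, 4.49% and 5.29%, and 8.09% and 10.7%. Mural cells carried an Il1r2 UMI in 0% to 1.51% of thinned cells. The intervals of all 4 treated basal shares overlap that range. At this depth the comparison cannot tell treated basal cells from mural cells, and it does not show that the gene is absent there. Class median depths were 9766.5 to 34793 UMIs in keratinocytes, higher in the treated libraries, and 4925 to 10856 in mural cells. Intervals cover counting error only.

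Splitting keratinocytes by a UMI of Krt15, a keratin of resting basal cells, described the same gene further. Such cells were 85.4% and 70.6% of keratinocytes in Sham and 12.7% to 22.9% in the treated libraries. Within them Il1r2 stood at 287 and 143 in Sham and 10.7 and 3.12 in IMQ, with 12.6 and 15.5 in IMQ+SHP099, and without a Krt15 UMI at 31.7 and 9.80, 3.64 and 2.39, and 6.11 and 7.99. Krt6b, a keratin of activated epidermis, had a UMI in 0.165% and 0.378% of Sham keratinocytes and in 51.6% to 76.6% of treated keratinocytes. Those cells held 82.7% to 94.0% of the Il1a UMIs, 91.7% to 95.7% of the Il1rn UMIs and 92.9% to 98.4% of the Il33 UMIs of treated keratinocytes. In IMQ their Il33 level was 295 and 173, against 15.8 and 6.53 in keratinocytes without a Krt6b UMI. In IMQ+SHP099 it was 429 and 372 against 153 and 32.3. The Il1a level was 11.96 and 19.3 against 4.54 and 2.21 in IMQ, and 17.4 and 19.1 against 8.67 and 6.21 in IMQ+SHP099. The Il1rn level was 195 and 186 against 29.2 and 22.04 in IMQ, and 157 and 407 against 66.9 and 48.1 in IMQ+SHP099. A split by a UMI also moves with depth per cell.

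Markers of other cells also moved in the keratinocyte sums. The summed level of 15 neutrophil markers was 118 and 123 CPM in Sham and 25527 to 43114 in the treated libraries, with 8 of the 14 tested higher in IMQ and none of the 15 at 0 throughout. The list holds S100a8 and S100a9, which keratinocytes also express, and which cells the 8 higher markers came from was not tested. The neutrophil receptor Csf3r, another marker of the list, stood at 0 and 0.191 in Sham and 0.227 and 0.435 in IMQ, with 0.0215 and 0.101 in IMQ+SHP099. The summed level of 11 Langerhans markers was 694 and 352 in Sham and 185 to 235 in the treated libraries, with 5 lower and 1 higher in IMQ and none at 0 throughout. Cd207, which defines Langerhans cells, was at 21.6 in Sham replicate 1 and 0 to 1.5 in the other 5. The summed level of 13 fibroblast markers was 191 and 359 in Sham and 394 and 496 in IMQ, with 325 and 350 in IMQ+SHP099, and 6 of the 13 were higher in IMQ. Of mural and blood endothelial markers, 2 of 11 and 2 of 12 tested were higher, and the other 7 lists held 0 to 2 markers past the threshold each. The part of these markers in the changes was not tested.

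Of the 4 genes that passed in keratinocytes, the promoters of Il1a, Il1rn and Il1r2 are shown. Each runs from 250 bases before to 50 after the RefSeq transcript start (GRCm38.p6), 5′ to 3′ on the strand of the gene. All 10 genes matched the RefSeq table, with 17 windows. Capitals mark matches, on either strand, to an AP-1 motif (TGANTCA, in 7.81% of 32851 promoters of this length), an E-box (CACGTG, 7.15%), an NF-kB motif (GGG and TTTCC with 2 bases of any kind between them, 1.63%) or a TATA motif (TATAAA, 13.6%).
Il1a, chr2:129309923-129310222, minus strand: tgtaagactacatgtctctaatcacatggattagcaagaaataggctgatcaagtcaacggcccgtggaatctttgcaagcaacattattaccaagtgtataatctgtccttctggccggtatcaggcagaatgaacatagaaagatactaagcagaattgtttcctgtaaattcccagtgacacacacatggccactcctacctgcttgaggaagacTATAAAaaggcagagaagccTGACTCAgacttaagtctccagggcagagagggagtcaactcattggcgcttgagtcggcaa
Il1rn, chr2:24336610-24336909, plus strand: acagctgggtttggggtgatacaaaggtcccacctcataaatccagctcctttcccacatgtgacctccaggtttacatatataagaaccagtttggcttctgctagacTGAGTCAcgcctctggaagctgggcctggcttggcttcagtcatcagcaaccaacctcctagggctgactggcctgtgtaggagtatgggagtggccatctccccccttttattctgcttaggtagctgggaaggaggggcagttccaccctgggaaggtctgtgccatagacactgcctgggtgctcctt
Il1r2, chr1:40085843-40086142, plus strand: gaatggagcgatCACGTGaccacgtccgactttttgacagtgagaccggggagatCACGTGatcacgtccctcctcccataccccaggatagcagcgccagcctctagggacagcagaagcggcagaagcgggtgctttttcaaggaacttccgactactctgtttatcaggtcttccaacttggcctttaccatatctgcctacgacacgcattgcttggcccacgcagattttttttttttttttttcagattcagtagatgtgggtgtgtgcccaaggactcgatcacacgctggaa
The Il1a window held a TATA match 32 bases and an AP-1 match 12 bases before the start. The Il1rn window shown is that of the most upstream of 3 starts and held an AP-1 match 141 bases before it. The other 2 Il1rn windows (chr2:24345041-24345340 and chr2:24345121-24345420) overlap and share an NF-kB match, 51 bases before the later start and 29 bases after the earlier start. The later window also held a TATA match 14 bases after its start, on the opposite strand. Il1a and Il1r2 had 1 window each, and the Il1r2 window, whose start lies within the annotated gene, held E-box matches 238 and 195 bases before it. The window of Il18, which also passed and is not shown, held a TATA match 175 bases before its start. A match describes these letters and not a bound site, and the motifs were chosen with the sequences in view.

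In fibroblasts Il33, the ligand of ST2, rose by 2.64 on the log2 scale (SE 0.38, adjusted p = 0.033). It was 1 of 9 genes tested, beside 0.841% of 14742 genes. The median log2 fold change was 0.37 over the 9 genes and -0.0061 over all genes. The call for Il33 was lost without Sham replicate 1 (2.45, adjusted p = 0.061), Sham replicate 2 (2.93, adjusted p = 0.11), IMQ replicate 1 (2.40, adjusted p = 0.098) or either IMQ+SHP099 library (2.66 and adjusted p = 0.064 in both), and in a fit of Sham and IMQ alone (2.65, adjusted p = 0.071), while the direction held. The receptor genes Il1r1 (1.08, SE 0.38, adjusted p = 0.29), Il1rap (0.94, SE 0.28, adjusted p = 0.20) and Il1rl1 (1.82, SE 0.79, adjusted p = 0.41) did not pass. Nor did the decoy Il1r2 (-0.50, SE 0.37, adjusted p = 0.74) or Il18r1 (-1.27, SE 0.55, adjusted p = 0.41). Il1a was too low to be tested in this class. Keratinocyte markers in fibroblasts summed to 922 and 428 CPM in Sham and 336 and 203 in IMQ, with 846 and 182 in IMQ+SHP099, with none of the 15 at 0 throughout. Neutrophil markers summed to 153 and 81.3 in Sham and 349 and 312 in IMQ, with 820 and 270 in IMQ+SHP099, and 2 of 13 tested were higher in IMQ. Of the other lists, 1 of 12 blood endothelial markers was higher, 1 of 11 Langerhans markers was lower, and no keratinocyte marker or marker of another list passed in edgeR. The part of these markers in the Il33 result was not tested.

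**Figure D4:**
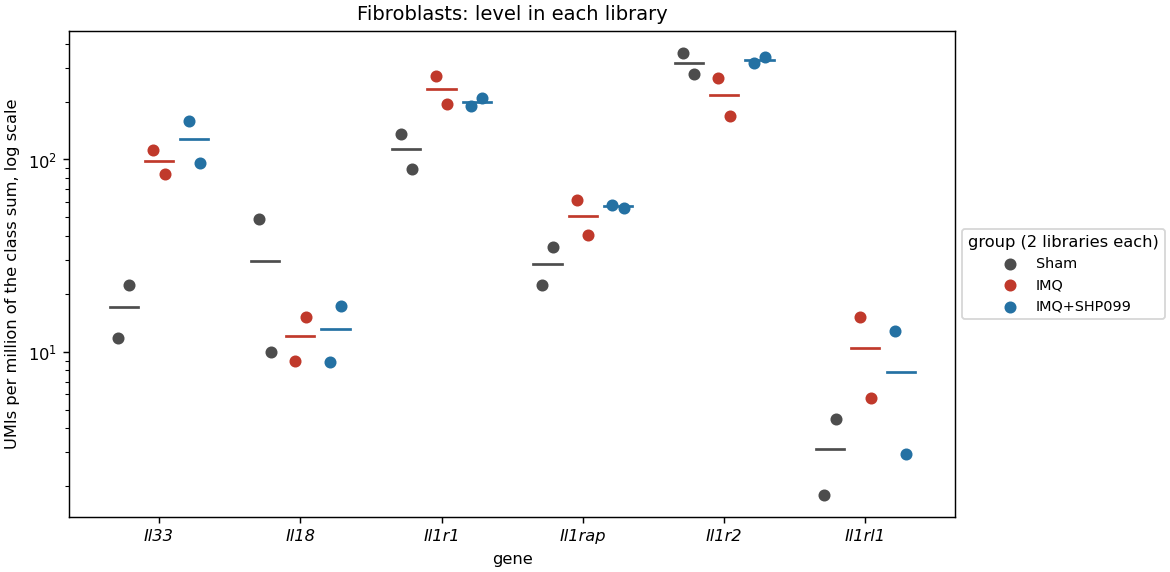
Level of Il33, Il18, Il1r1, Il1rap, Il1r2 and Il1rl1 in fibroblasts (CPM, log axis), with a point per library and a bar at the group mean. Il33 lies at 11.8 and 22.2 in Sham and 83.6 to 158 in the treated libraries, while for Il1r2 the IMQ libraries (266 and 169) lie below Sham (356 and 278), with which IMQ+SHP099 (316 and 340) overlaps.

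Fibroblasts with a UMI of Cd34, a surface marker of many dermal fibroblasts, held more Il1r2 than those without in all 6 libraries, at 392.3 and 352 against 74.8 and 8.60 CPM in Sham and 288 and 179 against 129 and 57.2 in IMQ. They also held more Il1r1, at 144 and 109 against 77.5 and 19.2 in Sham and 280 and 199 against 216 and 124 in IMQ. The Il1r2 UMIs per Il1r1 UMI of all fibroblasts numbered 2.62 and 3.1 in Sham and 0.979 and 0.874 in IMQ, with 1.67 and 1.63 in IMQ+SHP099.

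Whether keratinocytes and fibroblasts changed differently was tested in a fit of both classes with the library as a block, which called 8.36% of 15840 genes between IMQ and Sham. Of the 10 genes, 2 differed, and both were IL-1 receptors. The log2 fold change of Il1r2 was lower in keratinocytes than in fibroblasts by 4.75 (difference -4.75, SE 0.37, adjusted p = 0.0026), and that of Il1r1 by 1.84 (difference -1.84, SE 0.34, adjusted p = 0.019). The Il1r1 difference missed the threshold without IMQ replicate 1 (-1.82, adjusted p = 0.12) or IMQ replicate 2 (-2.04, adjusted p = 0.068). The differences for Il33 (-1.19, SE 0.42, adjusted p = 0.12) and Il18 (2.60, SE 1.01, adjusted p = 0.15) did not pass.

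**Figure D5:**
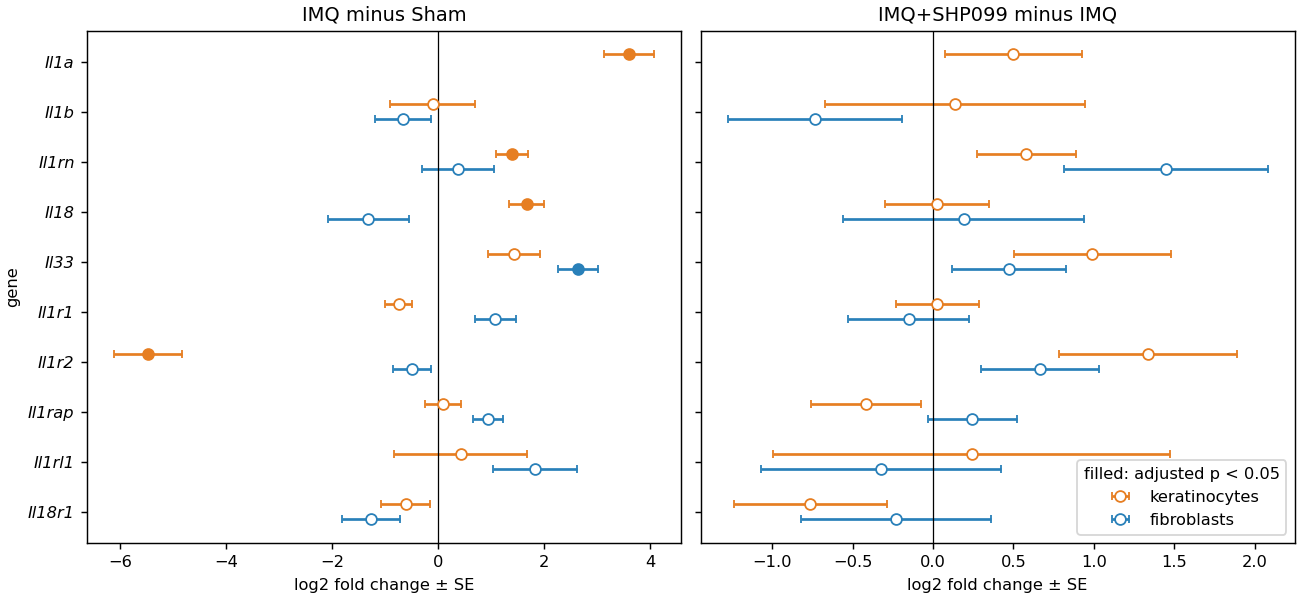
Log2 fold changes (points, with SE bars) of the tested genes in keratinocytes and fibroblasts, for the contrasts of IMQ with Sham and of IMQ+SHP099 with IMQ, with filled points for an adjusted p under 0.05. Filled points appear only for IMQ against Sham, for Il1a, Il1rn, Il18 and Il1r2 in keratinocytes and Il33 in fibroblasts.

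In macrophages and monocytes 0 of the other 6 genes tested passed the threshold between Sham and IMQ in edgeR (1 at an unadjusted p under 0.05, and none with DESeq2), beside 3.41% of 9695 genes. The seventh was Il1a, whose adjusted p of 0.047 is given as a description, since the gene entered the fit only through the libraries where it was high. No Il1a UMI was found in this class in either Sham library, against 20 and 14 in IMQ, 0 in IMQ+SHP099 replicate 1 and 10 in replicate 2. Pooled over the group, IMQ held 5.48 CPM against a limit of 0.840 that 3 counts would give in Sham. That limit rests mostly on Sham replicate 2, with 3284993 UMIs in the class against 288399 in replicate 1. It covers counting error only, so no fold difference between libraries is drawn from it. The adjusted p was over the threshold without Sham replicate 1 (adjusted p = 0.075), Sham replicate 2 (0.58), IMQ replicate 1 (0.30) or IMQ replicate 2 (0.15), and among cells under 5% mitochondrial UMIs (0.072). Il1b (1.28, SE 0.75, adjusted p = 0.48), Il1rn (-0.48, SE 0.45, adjusted p = 0.70) and Il1r2 (0.87, SE 0.51, adjusted p = 0.47) did not pass.

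Other markers changed in the macrophage sums as well. Neutrophil markers summed to 680 and 1995 CPM in Sham and 7778 to 9910 in the treated libraries, with 8 of the 12 tested higher in IMQ, and Csf3r stood at 13.9 and 27.7 in Sham and 68.2 to 122 in the treated libraries. Langerhans markers summed to 42877 and 40076 in Sham and 3231 to 5079 in the treated libraries, with 6 of 11 lower in IMQ, although Cd207 stayed at 0 to 13.1. That list also holds Cd74, H2-Aa, H2-Ab1 and H2-Eb1, antigen-presentation genes that are not confined to Langerhans cells. Dendritic markers summed to 649 and 1271 in Sham and 214 to 292 in the treated libraries, with 5 of 11 lower in IMQ. No marker of these 3 lists was at 0 throughout, and the other 9 lists held 0 to 2 markers past the threshold each. Cells with a UMI of Mrc1, a marker of resident macrophages, were 50.7% and 89.8% of the class in Sham and 27.3% and 17.3% in IMQ, with 58.8% and 10.1% in IMQ+SHP099. All Il1rl1 UMIs of the class in Sham replicate 2 lay in such cells. The part of these shifts in the Il1a levels was not tested.

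In lymphocytes 0 of 5 genes passed for IMQ against Sham, beside 0% of 9184 genes in edgeR (1325 at an unadjusted p under 0.05, 2 of the 5 among them, and 105 with DESeq2). The largest differences were in Il1b (-3.31, SE 0.90, adjusted p = 0.27), Il1rl1 (-1.98, SE 0.43, adjusted p = 0.23) and Il1r1 (1.72, SE 0.81, adjusted p = 0.37). Langerhans markers in the lymphocyte sums stood at 786 and 543 CPM in Sham and 251 and 252 in IMQ. Macrophage and monocyte markers stood at 84.5 and 209 against 207 and 649, dendritic markers at 641 and 557 against 559 and 788. Neutrophil markers stood at 257 and 258 against 1502 and 624. The part of these markers in the Il1b difference was not tested. Lymphocytes with a UMI of Foxp3, the regulatory T cell factor, held 513 and 256 Il1rl1 CPM in Sham and 361 and 869 in IMQ, against 8.06 and 34.5 and 3.22 and 1.58 without. They were 3.00% and 12.9% of lymphocytes in Sham and 1.67% and 0.993% in IMQ, from 14, 53, 12 and 3 cells. In IMQ+SHP099 replicate 2 their level was 442 against 1.85 without, from 8 cells. The 5 such cells of IMQ+SHP099 replicate 1 held 0 Il1rl1 UMIs, against 8.16 CPM in lymphocytes without a Foxp3 UMI. Lymphocytes with a UMI of Il17a, the cytokine of type 17 cells, held 116 and 110 Il1r1 CPM in IMQ and 145 in IMQ+SHP099 replicate 2, against 17.0, 23.2 and 14.7 without. They were 24.5% and 11.6% of IMQ lymphocytes and 1.71% and 6.81% of Sham lymphocytes. In Sham replicate 2 their level was 137 against 14.5 without, from 28 cells. The 8 such cells of Sham replicate 1 held 0 Il1r1 UMIs, and the 9 of IMQ+SHP099 replicate 1 held 2. Among gamma-delta cells the same split gave 122 against 20.9 in IMQ replicate 1 and 111 against 105 in IMQ replicate 2. In IMQ+SHP099 replicate 1 the median lymphocyte had 1261.5 UMIs and keratinocyte markers summed to 2240 CPM, against 322 to 1129 in the other 5 libraries, and 3 Il1r1 UMIs were found.

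In blood endothelial cells only Il1r1 was tested, and 0 of 1 passed (0.65, SE 0.47, adjusted p = 0.52), beside 0.0405% of 7406 genes in edgeR (1109 at an unadjusted p under 0.05, 34 with DESeq2, neither with Il1r1 past the adjusted threshold). In the sum over all cells 0 of 10 passed, beside 0% of 17382 genes in edgeR (1266 at an unadjusted p under 0.05, 1 of the 10 among them, and 581 with DESeq2). There Il1r1 differed by 1.73 (SE 0.65, adjusted p = 0.65), Il1a by 2.47 (SE 1.17, adjusted p = 0.73) and Il1b by 1.29 (SE 0.63, adjusted p = 0.74). In that sum, fewer cells of a type and less RNA per cell cannot be told apart. The all-cell level of Il1r2 was 289 and 174 in Sham and 122 and 118 in IMQ, with 59.6 and 212 in IMQ+SHP099, and that of Il1r1 24.9 and 54.7, 114 and 129, and 23.0 and 139.

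SHP099 was given together with imiquimod, and IMQ+SHP099 against IMQ asks what the inhibitor changed in treated skin. No gene of the 10 passed in any sum, and 0% of genes passed in all cells, keratinocytes, fibroblasts, blood endothelial cells, macrophages and monocytes, and lymphocytes in edgeR, as well as in the difference between keratinocytes and fibroblasts. At an unadjusted p under 0.05 the counts of genes were 52, 359, 133, 313, 178 and 162 in that order, and 357 for the difference. The genes tested numbered 17382, 14333, 14742, 7406, 9695 and 9184, and 15840 for the difference. DESeq2 called 4, 12, 1, 6, 0 and 0. Of the 10 genes, 1 had an unadjusted p under 0.05 in keratinocytes and 0 in the other 5 sums. This gene was Il1r2, with a log2 fold change of 1.34 (SE 0.55, adjusted p = 1). Keratinocyte Il33 (0.99, SE 0.49) and Il1rn (0.58, SE 0.31), fibroblast Il1rn (1.45, SE 0.63) and macrophage Il1r2 (-1.02, SE 0.51) likewise had an adjusted p of 1. The median log2 fold change was 0.19 over the 10 genes in keratinocytes against 0.048 over all genes, and 0.19 over 9 genes in fibroblasts against 0.025. The comparison shares the IMQ libraries with the comparison against Sham, and the 2 IMQ+SHP099 libraries differed from each other in makeup and depth as given above. Without IMQ+SHP099 replicate 1 the count was also 0 in each of the 6 sums.

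The rest of the pathway was read from a list of 41 symbols, of which 37 were in the files. In keratinocytes 6 of 29 tested rose between Sham and IMQ and none fell, beside 12.6% of all genes tested there in either direction, with a median log2 fold change of 0.15 against -0.08 over all genes. The 3 IL-36 ligands, IL-1 family cytokines of the epidermis, were among them. Il1f9 (IL-36 gamma) held 9.11 and 7.18 CPM in Sham and 120 and 106 in IMQ, with 80.2 and 195 in IMQ+SHP099, a rise of 4.02 on the log2 scale (SE 0.44, adjusted p = 0.0014). Il1f6 (IL-36 alpha) rose by 4.36 (SE 0.73, adjusted p = 0.0075), from 2.43 and 0.508 to 23.2 and 35.4. Il1f8 (IL-36 beta) rose by 3.47 (SE 0.34, adjusted p = 0.00091), from 1.38 and 1.68 to 12.6 and 15.5. Casp1, the protease that matures IL-1 beta and IL-18, rose by 2.22 (SE 0.25, adjusted p = 0.0015), from 5.08 and 5.91 to 20.9 and 21.6. Aim2, a DNA sensor of the inflammasome, rose by 2.64 (SE 0.45, adjusted p = 0.0084), and missed the threshold without IMQ replicate 1 (1.91, adjusted p = 0.067). The sixth gene to pass was the adaptor Myd88 (0.89, adjusted p = 0.038), which the rule of at most 5 names left out and which was added after its values were seen. It missed the threshold with any Sham or IMQ library left out (adjusted p = 0.051 to 0.41).

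In macrophages and monocytes 2 of 25 pathway genes passed between Sham and IMQ, beside 3.41% of all genes tested there, and both were higher in IMQ. Prtn3, a serine protease of neutrophil granules and their precursors that can process IL-1 family cytokines, had 0 and 2 UMIs in Sham and 250 and 278 in IMQ (adjusted p = 0.00084), with 7 and 126 in IMQ+SHP099, and missed the threshold without Sham replicate 2 (adjusted p = 0.18). Like Il1a, it entered the fit only through libraries where it was high, so its p is a description. Irak3, an inhibitory member of the IRAK family, rose by 1.73 (SE 0.40, adjusted p = 0.042), from 13.9 and 19.5 CPM to 44.5 and 61.9, and passed under 5 of 13 alternatives. It missed the threshold without Sham replicate 1 (adjusted p = 0.076), Sham replicate 2 (0.38), IMQ replicate 1 (0.092) or IMQ replicate 2 (0.37), and with DESeq2 (0.14). The neutrophil markers that moved with this class are given above. No pathway gene passed among 24 in fibroblasts, 15 in blood endothelial cells, 20 in lymphocytes or 35 in all cells. Those with the smallest p were Il1f9 in fibroblasts (0 and 0 UMIs in Sham, 16 and 20 in IMQ, adjusted p = 0.14), Pycard in blood endothelial cells (1.29, adjusted p = 0.29), Nek7 in lymphocytes (-0.93, adjusted p = 0.27) and Il1f10 in all cells (-4.98, adjusted p = 0.51). Between IMQ+SHP099 and IMQ no pathway gene passed in any sum. Those with the smallest p there were Nlrp10 in keratinocytes (0.62), Il1f9 in fibroblasts (1.34), Tollip in blood endothelial cells (0.99), Irak3 in macrophages and monocytes (0.59), Irak2 in lymphocytes (1.02) and Il1f10 in all cells (2.88), as log2 fold changes.

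Genes whose pattern over classes and libraries was most like that of each of the 10 were ranked by Pearson's r of log2(CPM + 1) over 62 sums of a class in a library, among 12386 genes. Sums from the same library share its depth and free RNA, so r is a description. Il1b was most like Spi1 (0.95), Alox5ap (0.934) and Nfam1 (0.932), and Il1rn most like Rbm47 (0.918), Plbd1 (0.90) and Rhov (0.867). Il18r1 was most like Cd69 (0.892), Tespa1 (0.869) and Acap1 (0.861), and Il18 most like Pak1 (0.847), Bco2 (0.835) and Cyp27a1 (0.804). Il1rl1 was most like Ddc (0.833), Poln (0.826) and Espn (0.815), and Il1a most like Il1f9 (0.825), Stfa2 (0.785) and Slc7a11 (0.785). Il33 was most like F3 (0.821), Tyro3 (0.784) and Cntfr (0.770), and Il1r1 most like Rtn2 (0.792), Nfatc4 (0.788) and Spock2 (0.767). Il1r2 was most like Csf1r (0.777), Irf5 (0.755) and Pik3r5 (0.751). Il1rap had the weakest likeness, with Arhgap24 (0.669), Acot1 (0.664) and 1700047M11Rik (0.649).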

How the data were processed

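Dorsal skin of 3 groups of 2 pooled libraries was measured by droplet single-cell RNA-seq. The deposited matrices hold raw UMI counts per gene and barcode, which the authors made with Cell Ranger 3.1.0 (version per the file headers) on GRCm38 (mm10). Deposited totals were 53913865 to 188283327 UMIs per library. As in the study's methods, barcodes were kept with fewer than 100000 UMIs, fewer than 6500 genes and a mitochondrial share under 10% (50850 of 55201, 92.1%). No doublet caller was run, and 2041 cells that scored on more than 1 class were set aside as mixed.

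Classes were gated by 169 markers found of 171 listed, as the mean of the top 6 scaled markers of a class, with a leading score of at least 0.3 and a second score of at most 0.7 of it (0.9 among myeloid classes). Of gated cells, 98.8% kept their class by nearest mean profile, and 4.59% of cells lay near a limit. Names are rebuilt from markers and may differ from the study's. UMIs were summed per class and library and tested with edgeR 4.0.16 (quasi-likelihood, TMM, low counts filtered, all 6 libraries in 1 fit, Benjamini-Hochberg over all genes tested). An exact permutation test of 2 libraries against 2 cannot go below p = 0.333. Alternatives were DESeq2 1.42.0, no filter, only the 2 groups, the replicate number as a block, each library left out, under 5% mitochondrial UMIs, a stricter gate and the nearest profile. Python 3.11.15, scipy 1.17.1 and R 4.3.3 were used.

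Named genes were all 10 members, the pathway genes past the threshold (at most 5 per fit by smallest adjusted p, or else the 1 with the smallest p) and the 3 genes most like each member. The 10 genes and all lists were chosen with earlier results of these data known. The test between keratinocytes and fibroblasts and the splits by a UMI were chosen after seeing the data. Promoter sequences are from RefSeq.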

Additional observations from a re-analysis of the deposited data

Results flagged for a closer look

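The IMQ against Sham change differed between keratinocytes and fibroblasts, by a test of the difference itself, for 2 genes. The difference in log2 fold change was -4.75 for the decoy receptor Il1r2 (SE 0.37, adjusted p = 0.0026) and -1.84 for the signalling receptor Il1r1 (SE 0.34, adjusted p = 0.019), in edgeR with the library as a block. In keratinocytes Il1r2 was lower in 4 of 4 treated libraries than in both Sham libraries, and in fibroblasts it was 266 and 169 CPM in IMQ, below the 356 and 278 of Sham, with 316 and 340 in IMQ+SHP099, which overlapped with Sham.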

How the results depend on the processing

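Of 403 values of 32 fold changes under an alternative, 358 kept their direction and side of the threshold, 33 lost the threshold, 11 gained it and 1 reversed (Il1r1 in macrophages and monocytes, -1.67, and 1.91 by nearest profile). Counts of the 10 genes past the threshold for IMQ against Sham moved as follows, and the causes were not tested. In keratinocytes 4 became 3 with the stricter gate, 5 with DESeq2, without a filter or with the replicate block, and 2 to 4 with a library left out. In fibroblasts 1 became 5 without a filter, 0 with only the 2 groups and 0 to 1 with a library left out. In macrophages and monocytes 1 became 0 with DESeq2, the replicate block, cells under 5% mitochondrial UMIs or the stricter gate. It became 3 without a filter (2 higher and 1 lower in IMQ) or by nearest profile (3 higher). With a library left out, the genes past the threshold were not always the same. They included a gene lower in IMQ in each such fit except that without Sham replicate 2. In lymphocytes 0 became 3 without a filter and 1 with the replicate block. The count of differences between keratinocytes and fibroblasts, 2, became 4 without a filter or with the stricter gate and 1 to 4 with a library left out. For IMQ+SHP099 against IMQ, 0 became 1 without a filter in keratinocytes and in blood endothelial cells. Counts over all genes for IMQ against Sham ranged over the alternatives from 523 to 3097 in keratinocytes (1813 as reported), 0 to 1393 in fibroblasts (124), 14 to 853 in macrophages and monocytes (331), 0 to 421 in blood endothelial cells (3), 0 to 588 in lymphocytes (0) and 0 to 581 in all cells (0). For IMQ+SHP099 against IMQ they reached 125, 75, 17, 68, 35 and 4 in that order. DESeq2 moved the all-gene median in macrophages and monocytes to -0.18. Replicates of different groups share only a number. Deviations of same-numbered libraries correlated at 0.347 to 0.554 in all cells, 0.0393 to 0.196 in keratinocytes, -0.0152 to 0.149 in fibroblasts, -0.105 to 0.0343 in blood endothelial cells, 0.0217 to 0.0949 in macrophages and monocytes and 0.193 to 0.376 in lymphocytes, and the replicate block gave 287, 2728, 321, 1, 346 and 210 genes for IMQ against Sham. With the block, Il33 in keratinocytes (1.37, adjusted p = 0.0052) and Il1rl1 in lymphocytes (-1.85, adjusted p = 0.041) gained the threshold and Il1a in macrophages and monocytes lost it (adjusted p = 0.053). Depth limits low genes: Il1a in macrophages and monocytes rests on 34 UMIs in IMQ.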
